A study of Mus musculus with 12 samples.

Results

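Chromatin regions that were open to DNase I in mitotic cells of both lines, and listed in no asynchronous library, are described here. Peaks of 12 libraries were merged on the 19 autosomes wherever they shared at least 1 bp, which gave 263720 regions. A region was kept when at least 2 of 3 mitotic libraries of G1E and at least 2 of 3 mitotic libraries of G1E-ER4 had a peak in it and none of the 6 asynchronous libraries did. This held for 814 regions (0.309% of all), called mitotic-only below. The same lists chose the regions, so their presence in mitosis and absence from asynchronous cells is a description and carries no test. The name means that no peak was listed in asynchronous cells. It does not show that the chromatin was closed there, because each list ends at 100000 peaks.

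In mitosis the chromosomes condense, most transcription stops and many transcription factors leave the DNA. Some regulatory sites nevertheless stay accessible to nucleases, and factors that stay bound at such sites are often called mitotic bookmarks. DNase I cuts where nucleosomes are displaced, so a narrow peak with a fixed summit is the usual picture of a bound promoter or enhancer.

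The study used 2 murine erythroid lines of strain 129 background with 3 libraries in each of 4 groups. G1E cells come from embryonic stem cells in which the gene for GATA-1, a factor required for red cell maturation, was disrupted. G1E-ER4 is a subline of G1E with an inducible GATA-1, and all of its libraries, asynchronous and mitotic, had 100 nM estradiol for 22 h. Mitotic cells of both lines were arrested with nocodazole, a microtubule poison, at 200 ng/ml for 7 h and sorted for histone H3 phosphorylated at serine 10, a mark of condensed chromosomes. All libraries were made from cells fixed with 0.1% formaldehyde. No asynchronous library had nocodazole, so mitosis and the drug cannot be told apart, nor can GATA-1, estradiol and the subline. The labels do not say that replicates were separate cultures, so p-values measure the spread between these libraries, which may be technical. No peak list gives expression or read counts, so cell type markers and depth were not read. Regions are given by position on build mm9, counted from 1. No annotation or genome of that build was used, so genes, exons and sequences at the regions were not analysed here.

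The mitotic-only regions were weak sites. Strength was read as the rank of a peak within its own list, where rank 1 has the highest signal and rank 100000 the lowest. The median rank of the mitotic-only peaks was 62722.5, 67358 and 68501 in the 3 mitotic G1E libraries. In the mitotic G1E-ER4 libraries it was 62134, 61944 and 62392.5. All 6 medians thus lay in the weaker part of the list. Between 0.317% and 7.17% of the mitotic-only peaks of a library stood among its 20000 highest peaks. Of the 814 regions, 5 had a mean rank over their mitotic libraries better than 30000 and 20 better than 40000.

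Most regions met the rule with little to spare. Exactly 2 libraries of each line had the peak in 503 regions (61.8%), and all 6 mitotic libraries had it in 72 (0.0273% of all 263720 regions). A single mitotic library held between 488 (replicate 3 of G1E-ER4) and 704 (replicate 1 of G1E-ER4) of the 814. Just inside the limit, the 503 regions had a median width of 1126 bp, a median mean rank of 65804 and a median summit SD (the spread of the peak's highest point over the libraries) of 204 bp, with 10.9% of them within 50 bp. Just outside it, 2302 regions had 2 mitotic libraries in 1 line, 1 in the other and no asynchronous one, with a median width of 897 bp, a median mean rank of 68218 and a median summit SD of 134 bp, with 22.9% within 50 bp. The regions just outside were narrower, slightly weaker and less spread, with fewer libraries behind each SD.

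The share of mitotic-only regions among all regions reproduced in mitosis depended on strength. In all, 41272 regions had a peak in at least 2 of 3 mitotic libraries of each line, and 814 of them (1.97%) were in no asynchronous library. Of the 10219 with a mean rank better than 15000, none was mitotic-only. Between ranks 45000 and 60000 the share was 3.16% (278 of 8794), and beyond rank 75000 it was 18.5% (139 of 752). All of those 10219 strongest regions were thus listed in at least 1 asynchronous library. Most mitotic-only regions came from the weak end. With the stages exchanged, asynchronous-only regions made up 7.18% of 38192 reproduced regions.

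Among the 72 regions of all 6 mitotic libraries, the one with the best mean rank, at chr12:72665299-72666750, stood at ranks 18480, 33696 and 16823 in G1E and at 41907, 47183 and 15055 in G1E-ER4. Its summits lay close together, with an SD of 56.5 bp over the 6 libraries. The nearest asynchronous peak was 196 bp away, in replicate 3 of G1E-ER4. The second, at chr1:14168479-14169680, was the most even of the first 10. It ranked 31775, 34733 and 31814 in G1E and 30503, 27263 and 27536 in G1E-ER4, with no asynchronous peak within 1977 bp. In the first the ranks of the 2 lines overlapped, and in the second all 3 G1E-ER4 libraries ranked it slightly higher. The third, at chr1:58707807-58708762, ranked 37147, 67843 and 50778 in G1E and 11410, 12640 and 19347 in G1E-ER4. Here all 3 G1E-ER4 libraries ranked the site higher than any G1E library, and the authors' pooled asynchronous G1E-ER4 list also held a peak, at rank 73499. A like order was found at chr6:31890314-31892053, with ranks of 69364, 64363 and 60322 in G1E and 20391, 23580 and 45427 in G1E-ER4. The reverse was seen at chr12:25375591-25376451, ranked 20129, 43980 and 20787 in G1E and 81824, 45716 and 63511 in G1E-ER4. These regions were singled out for their order after their values were seen, so no test was made. How many of the 72 regions separate the lines in this way was not counted, so the examples do not show sites particular to 1 line. Of these 10 regions of best mean rank, 5 lie on chromosome 1 and 3 on chromosome 12. Of the 72 regions from which they were drawn, 25 lie on chromosome 1 and 8 on chromosome 12.

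**Figure D1:**
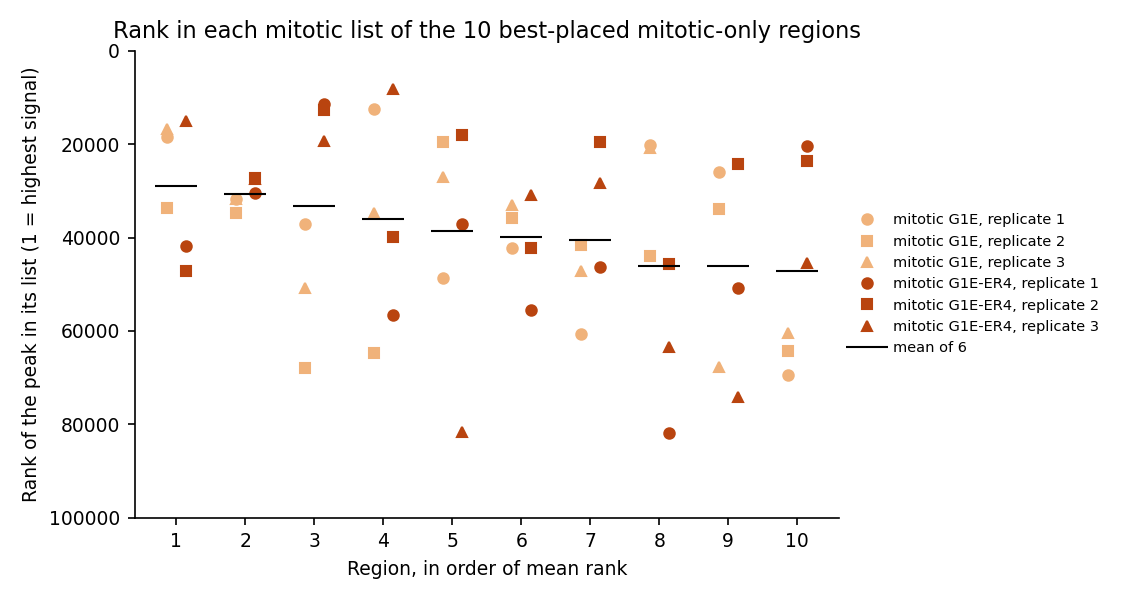
Rank of the peak in each of the 6 mitotic lists (vertical axis, 1 is the highest signal, axis inverted) for the 10 mitotic-only regions of all 6 lists with the best mean rank, with the mean as a black bar. The first region, at chr12:72665299-72666750, spans ranks 15055 to 47183, and the second, at chr1:14168479-14169680, spans only 27263 to 34733.

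The regions were broader and their summits more spread than those of asynchronous-only regions. Against the other regions reproduced in mitosis they were narrower and had a smaller median spread. A larger share of those others, however, had summits within an SD of 50 bp. The median width of a mitotic-only region was 1251.5 bp, with quartiles of 925 and 1699 bp and a range of 265 to 4112 bp. The SD of the summit position over the mitotic libraries of a region had a median of 223 bp (quartiles 118 and 392 bp). Only 75 regions (9.21%) had summits within an SD of 50 bp. For comparison, the rule was applied with the stages exchanged, which gave 2741 asynchronous-only regions (1.04% of all regions), 889 of them in all 6 asynchronous libraries (0.337% of all). The 2741 had a median width of 650 bp and a median summit SD of 19.3 bp, and 78.5% had an SD within 50 bp. Their mean rank had a median of 44449, against 63477 for the mitotic-only regions. The other 40458 regions reproduced in mitosis, which had at least 1 asynchronous library and whose width includes its peaks, had a median width of 2856 bp and a median summit SD of 310 bp over the mitotic libraries, with 26.9% within 50 bp. Those with exactly 1 asynchronous library, 2851 regions, had medians of 1872 bp and 341 bp, with 6.59% within 50 bp. The difference in median summit SD was 203 bp (exact permutation test, two-sided, stage labels exchanged within line and both sets chosen anew in each of 400 arrangements, p = 0.05, adjusted 0.15 over 3 tests), which did not fall below the threshold of 0.05. It was 266 bp with an exact permutation p = 0.005, not adjusted, without replicate 1 of asynchronous G1E-ER4. That was the lowest p on leaving out each of the 12 libraries in turn, which gave an exact permutation p of 0.005 to 0.105. The difference in median width was 601.5 bp (same exact permutation test, p = 0.165, adjusted 0.2475). It was 935 bp with an exact permutation p = 0.005, not adjusted, without replicate 1 of asynchronous G1E-ER4. Leaving out any other library gave an exact permutation p of 0.115 to 0.345 for width.

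Width and strength go with summit spread, so the sets were also compared in classes. Among regions of 600 to 1000 bp the median summit SD was 122 bp for 205 mitotic-only and 21.5 bp for 936 asynchronous-only regions. Among regions of mean rank 60000 to 75000 it was 235 bp for 357 mitotic-only and 40.2 bp for 363 asynchronous-only regions. Beyond rank 75000 the values were 241 bp for 139 and 123 bp for 63 regions. The mitotic-only regions had the wider spread in every class of width and of rank, and no test was made by class. At the 16145 regions of all 12 lists, which the stage did not choose, the median summit SD was 55.2 bp in mitotic and 22.7 bp in asynchronous libraries. That difference of 32.5 bp was within what relabelled libraries gave (exact permutation test, two-sided, 400 arrangements, p = 0.46).

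**Figure D2:**
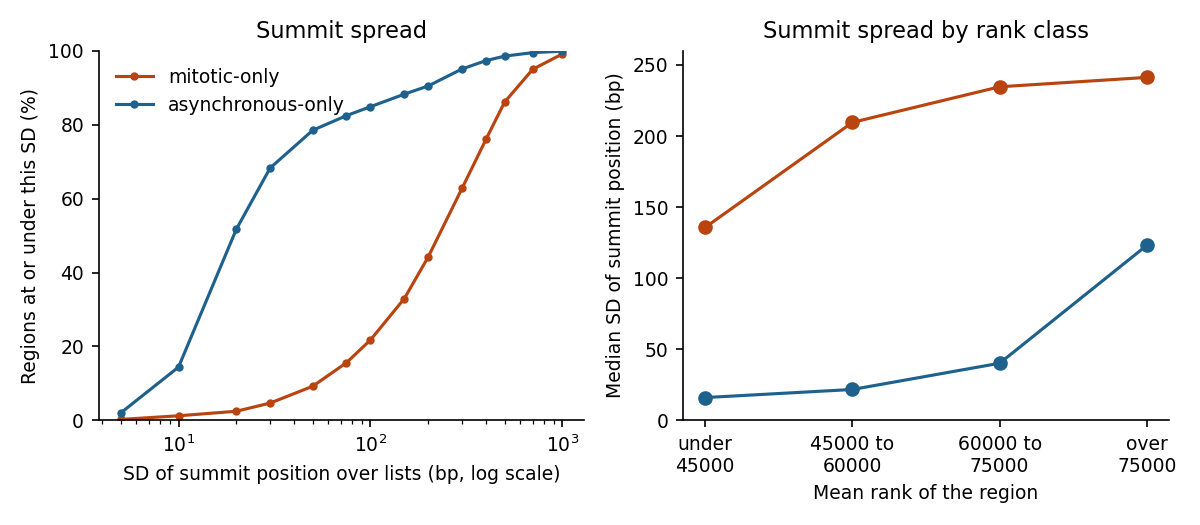
Left, share of regions (%) whose summit position has at most the SD given on the log axis (bp), for 814 mitotic-only and 2741 asynchronous-only regions; right, median SD by class of mean rank. At an SD of 50 bp the curves stand at 9.21% and 78.5%, and the mitotic-only points lie above the asynchronous-only ones in all 4 rank classes.

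A small group of mitotic-only regions had closely placed summits. Of the 75 with summits within an SD of 50 bp, 57 had no peak in either pooled asynchronous list, and 5 were in all 6 mitotic libraries. Their median width was 671 bp and their median mean rank 54529. Among regions of at least 5 mitotic libraries and no pooled asynchronous peak, the closest summits were at chr19:35418226-35418492, with an SD of 4.67 bp. That region ranked 71798, 74895 and 47230 in G1E and 44879 and 33845 in replicates 2 and 3 of G1E-ER4, and its nearest asynchronous peak was 19055 bp away. The region at chr14:49826374-49826728 was stronger, at 6972, 33519 and 25533 in G1E and 42440 and 35884 in replicates 1 and 3 of G1E-ER4. Its summits had an SD of 8.59 bp, and no asynchronous peak lay within 9504 bp. Both sites had mitotic peaks of unlike strength at nearly the same base pair. At chr13:101033969-101034801, present in all 6 libraries, the summit SD was 16.4 bp while the ranks ran from 30030 to 98584. The region at chr1:61283862-61284299 had a summit SD of 5.32 bp over 5 libraries and the most uneven ranks of this group, from 1097 in replicate 3 of mitotic G1E-ER4 to 96900 in replicate 3 of mitotic G1E. On pooled reads the mitotic G1E-ER4 peak stood at rank 8647, and the mitotic G1E list had none.

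The narrowest region of all, at chr5:50145907-50146171, was 265 bp wide with a summit SD of 2.52 bp over 4 libraries. It was also among the 5 regions farthest from any asynchronous peak, 63842 bp from the nearest. The farthest was chr12:44274816-44275553, 128596 bp from the nearest asynchronous peak, with ranks of 71023 and 73448 in replicates 2 and 3 of G1E and 41560 and 55817 in replicates 1 and 3 of G1E-ER4. At the other end, the widest region, chr13:30877286-30881397, spanned 4112 bp, and its 4 libraries placed their summits with an SD of 1243 bp. The widest region of all 6 libraries, chr17:14370254-14374349, had a summit SD of 865 bp and a peak in the pooled asynchronous G1E-ER4 list. In both wide regions the libraries placed their best peaks far apart.

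Absence from the asynchronous lists turned on 1 library more than on the others. Of the 2851 regions that met the mitotic condition and had a peak in exactly 1 asynchronous library, 2033 (71.3%) had it in replicate 1 of asynchronous G1E-ER4. The other 5 asynchronous libraries held 92 to 251 of these regions each. That library had the widest peaks, with a list median of 1195 bp against 356 to 763 bp in the other 5. Without it, 3217 regions met the rule in place of 814. The 2851 regions were somewhat stronger than the 814, with a median mean rank of 57790. They were also somewhat broader, with a median of 1872 bp, but their width includes the asynchronous peak, while that of the 814 comes from mitotic peaks only. Leaving out a mitotic library, which requires both others of its group, gave 315 to 519 regions, the lowest without replicate 1 of G1E-ER4.

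Many mitotic-only regions had an asynchronous peak nearby. The nearest asynchronous peak of any of the 6 libraries was at a median of 1036.5 bp, within 1 kb for 403 regions (49.5%) and beyond 10 kb for 71 (8.72%). By library, the share within 1 kb was 13.3%, 10.1% and 10.8% in G1E and 31.2%, 17.7% and 16.6% in G1E-ER4. All 3 G1E-ER4 libraries lay above all 3 G1E libraries. For the asynchronous-only regions the nearest mitotic peak was at a median of 2864 bp, and 23.0% were within 1 kb. The neighbours were seldom strong. Among 427 mitotic-only regions within 1 kb of a region with an asynchronous peak, that neighbour had a median best asynchronous rank of 58122, stood among the 20000 highest peaks in 46 cases and was in all 12 lists in 31.

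The authors also called peaks on the pooled replicates of each group, from the same reads. The pooled mitotic lists held 762 (93.6%, G1E) and 767 (94.2%, G1E-ER4) of the 814 regions. The pooled asynchronous G1E list held 31 (3.81%) and the pooled asynchronous G1E-ER4 list 165 (20.3%), and 629 regions (77.3%) were in neither. Of the asynchronous-only regions, the pooled mitotic lists held 5.14% (G1E) and 2.74% (G1E-ER4), and the pooled asynchronous lists 98.5% (G1E) and 97.1% (G1E-ER4). The summit of the pooled asynchronous peak lay inside the mitotic-only region in 27 of 31 cases in G1E and in 120 of 165 in G1E-ER4. Most of these peaks were weak, with median ranks of 93746 and 87817. The best-ranked was chr7:152085281-152086637, where the pooled asynchronous G1E-ER4 list had a peak at rank 3388 and 4 mitotic libraries ranked 59488 to 84457. The nearest replicate peak was 185 bp away, in asynchronous G1E.

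The surroundings of the regions held more peaks in mitotic than in asynchronous libraries. From 5 to 50 kb on both sides, mitotic G1E libraries had 99.1, 91.3 and 90.6 peaks per Mb and mitotic G1E-ER4 libraries 94.9, 92.8 and 85.8. Asynchronous G1E libraries had 56.4, 58.3 and 57.1, and asynchronous G1E-ER4 libraries 81.6, 74.0 and 72.7. The 6 mitotic values all lay above the 6 asynchronous ones, and G1E-ER4 lay above G1E among the latter. The average over the autosomes was at most 40.3 peaks per Mb in each library, all lists being of equal length. Around the asynchronous-only regions the order was the opposite, at 70.3 to 84.2 peaks per Mb in mitotic and 86.6 to 96.8 in asynchronous libraries. The regions were chosen on the same libraries, so these densities were not tested.

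**Figure D3:**
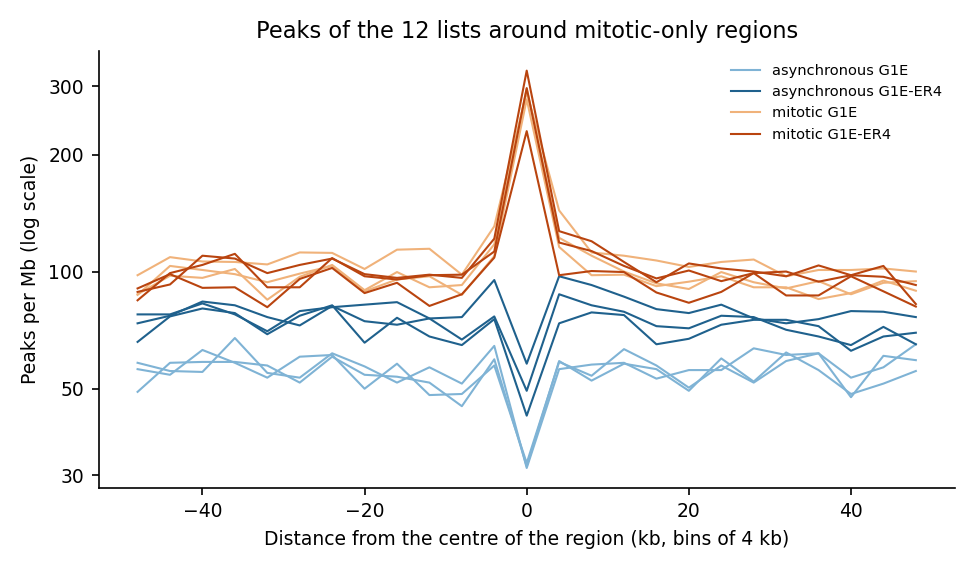
Peaks per Mb (log axis) in bins of 4 kb by distance from the centre of the 814 mitotic-only regions, 1 line per library. The central bin is set by the rule, and in every other bin drawn the 6 mitotic lines also lie above the 6 asynchronous ones, with the mean of asynchronous G1E-ER4 above that of asynchronous G1E.

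Whether such regions carry over to a line whose presence calls did not choose them was tested between the lines. The regions were merged over all 12 libraries, so peaks of the line read also helped to set their extent. In G1E alone, 15948 regions (6.05% of all) were in at least 2 of 3 mitotic and no asynchronous libraries. They had a peak in 64.3%, 56.7% and 42.4% of cases in the mitotic G1E-ER4 libraries, a mean of 54.5% ± 11.1 (SD, n = 3). In the asynchronous G1E-ER4 libraries the shares were 68.5%, 35.4% and 35.7%, a mean of 46.6% ± 19.0 (SD, n = 3). The groups overlapped, and the difference of 7.92 percentage points was smaller than the SD of the asynchronous libraries (two-sided exact permutation test, p = 0.6, adjusted 0.7 over 4 tests). Without replicate 1 of asynchronous G1E-ER4, the highest of the 6, the difference was 18.8 points (exact permutation p = 0.2). It was 2.26 and 2.44 points without its replicates 2 and 3, 2.82 without replicate 1 and 13.9 without replicate 3 of mitotic G1E-ER4.

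In the other direction, 7545 regions (2.86% of all) were mitotic-only in G1E-ER4. The mitotic G1E libraries held 28.5%, 22.5% and 23.2% of them, a mean of 24.7% ± 3.29 (SD, n = 3), and the asynchronous G1E libraries 13.3%, 12.8% and 13.9%, a mean of 13.3% ± 0.571 (SD, n = 3). The groups did not overlap, with a difference of 11.4 percentage points (exact permutation test, two-sided, p = 0.1, the smallest that 3 against 3 allows, adjusted 0.2). The threshold of 0.05 could not be reached in this design. The difference was 25.1 points without replicate 1 of asynchronous G1E-ER4 and 17.7 without replicate 3 of mitotic G1E-ER4. With the stages exchanged, regions listed only in asynchronous G1E-ER4 were found in asynchronous G1E libraries at 55.4% ± 3.97 and in mitotic ones at 26.7% ± 6.33 (SD, n = 3 each), and those of asynchronous G1E in asynchronous G1E-ER4 at 23.7% ± 2.79 and in mitotic G1E-ER4 at 6.92% ± 1.06 (SD, n = 3 each). Whether the carry-over differed between the directions was not tested.

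**Figure D4:**
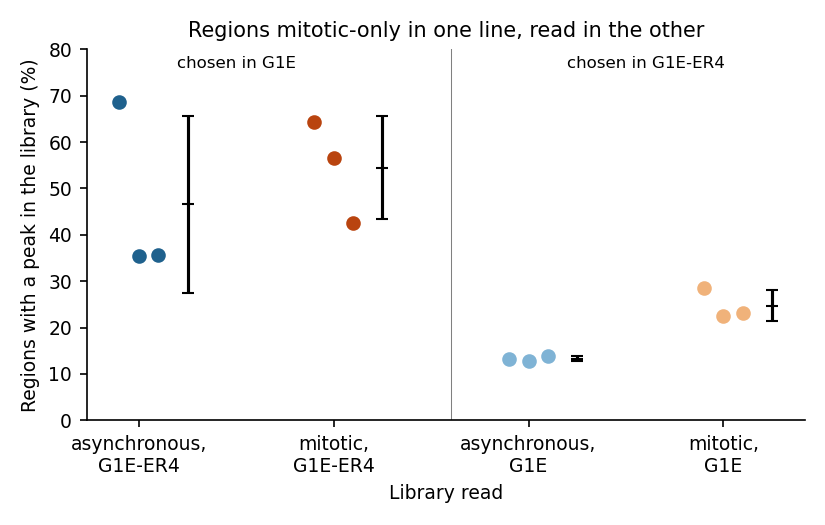
Share of regions (%) with a peak in each library of the line that did not choose them, for 15948 regions mitotic-only in G1E (left) and 7545 in G1E-ER4 (right); points are libraries, bars mean ± SD of 3. The asynchronous and mitotic G1E-ER4 libraries overlap on the left, while on the right the mitotic G1E libraries, at 22.5% to 28.5%, lie above the asynchronous ones, at 12.8% to 13.9%.

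At the 814 regions the lines did not overlap in median rank and overlapped in median peak width. The median rank averaged 66194 ± 3060 over the mitotic G1E libraries and 62157 ± 225 over those of G1E-ER4 (SD, n = 3 each). G1E ranked the regions lower in all 3 libraries, by a difference of 4037 places (exact permutation test, two-sided, p = 0.1, the smallest possible, adjusted 0.2). The gap was narrow, as the nearest medians of the lines were 62722.5 in G1E and 62392.5 in G1E-ER4. The median peak width was 832, 648 and 478 bp in mitotic G1E and 828.5, 521 and 454.5 bp in mitotic G1E-ER4. The groups overlapped, although G1E was the wider at each replicate number, with a difference of 51.3 bp (exact permutation p = 0.7, adjusted 0.7). That difference turned to -38.2 bp without replicate 1 of mitotic G1E, and to -0.0582 when each width was divided by the median width of its list. In every mitotic library the mitotic-only peaks were narrower than the list as a whole, at 0.786 to 0.963 times its median width.

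Chromosomes 1 and 12 together held 223 of the 814 regions (27.4%). They held 21.0% of the regions reproduced in mitosis and 11.3% of the asynchronous-only regions. On chromosome 1 alone there were 138 mitotic-only regions (17.0%), against 11.6% of those reproduced in mitosis. The peaks of the single libraries also varied on these chromosomes, from 9.69% to 14.1% on chromosome 1 in mitotic and from 9.72% to 16.5% in asynchronous libraries. On chromosome 12 the ranges were 8.15% to 10.6% and 5.11% to 14.6%. Chromosome 10 held the fewest mitotic-only regions, 15 (1.84%), and 3.17% of the regions reproduced in mitosis. Without chromosomes 1, 2, 4, 12 and 14, 483 regions remained. Of these 5 chromosomes, peak shares by library are given here for 1 and 12 only. On chromosome 1, 44 regions lay between 30 and 40 Mb, 7.01% of the 628 regions reproduced in mitosis there. That share was not the highest on the chromosome. Between 60 and 70 Mb it was 20 of 184, or 10.9%, and between 90 and 100 Mb 5 of 591, or 0.846%.

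**Figure D5:**
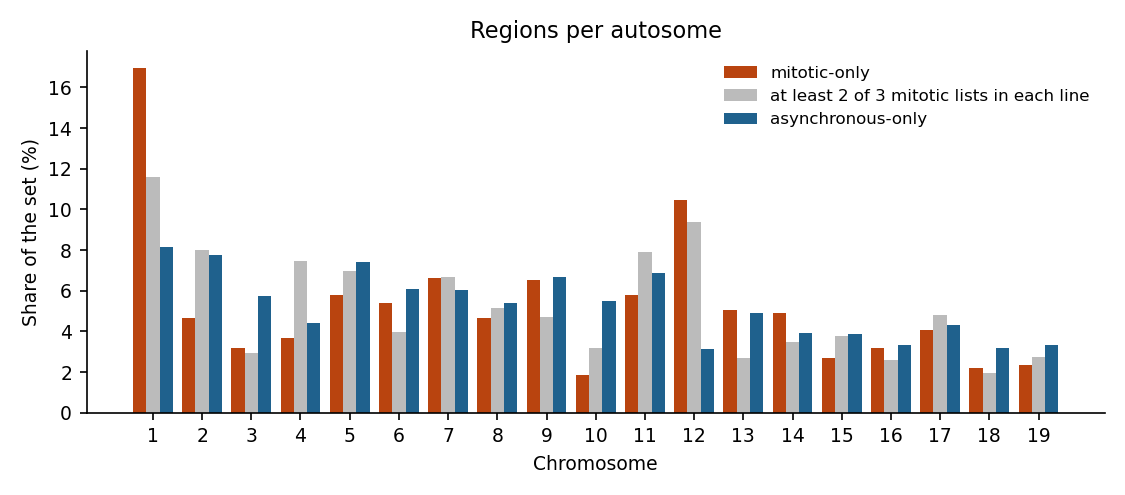
Share (%) of 814 mitotic-only regions, of 41272 regions of at least 2 of 3 mitotic lists in each line and of 2741 asynchronous-only regions on each autosome. Chromosome 1 holds 17.0%, 11.6% and 8.14% of the sets and chromosome 12 10.4%, 9.38% and 3.14%.

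Most distances between successive mitotic-only regions were above 50 kb. Whether they differed from the spacing of other regions reproduced in mitosis was not tested. The median distance from the start of a region to the next on its chromosome was 747 kb, and 104 of 795 distances (13.1%) were within 50 kb. The densest run within 1 Mb began at chr1:33999448 and held 15 mitotic-only regions, 6 of them in all 6 mitotic libraries. Its 1 Mb window held 101 regions reproduced in mitosis. Over the autosomes 814 of 41272 such regions (1.97%) were mitotic-only. Over that run, to position 34991345, the mitotic libraries had 174 to 211 peaks and the asynchronous ones 96 to 165. The next runs held 10 regions each, in 1 Mb windows with 130 (chromosome 1) and 44 (chromosome 12) regions reproduced in mitosis. On chromosome 1 from 39113204 to 40054908, mitotic libraries had 210 to 255 peaks and asynchronous ones 101 to 189. On chromosome 12 from 29824332 to 30716367 the counts were 67 to 116 in mitotic and 18 to 53 in asynchronous libraries. The stages did not overlap in any of the 3 runs, which were chosen for their mitotic-only regions, so this is a description.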

How the data were processed

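DNase-seq peak lists of 12 libraries and of 4 pooled groups were analysed. Per the submitters' processing notes, reads were aligned with Bowtie to mm9. The caller is, like any filter on peaks, not given in the sources used here. Deposited lists give, for each peak, a position, a summit offset and a signal of unstated normalization. Each holds 100000 peaks in descending order of signal, so signal was used only as a rank within a list. Read depth is unknown, and no counting interval was computed. A region counted as present in a library with 1 shared bp. Where a library had several peaks in a region, the one with the best rank gave rank, width and summit. Mean rank and summit SD were taken over the libraries with a peak.

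Tests were exact permutations over libraries, two-sided, with a threshold of 0.05 and Benjamini-Hochberg adjustment over the 4 designed and, separately, the 3 added tests. The 3 comparisons of width and summit SD, the classes, the neighbour regions and the check of named regions were added after seeing the data. The regions, sets and lists were chosen with earlier results of these data known. Regions named by position were the 10 of best mean rank and the 5 narrowest among those of all 6 mitotic libraries, the 5 widest, the 5 farthest from an asynchronous peak, the 5 with the closest summits among those of at least 5 libraries and no pooled asynchronous peak, the 3 of best rank in a pooled asynchronous list and the 3 densest runs within 1 Mb. The rules other than that for the 3 runs came to 31 regions, from which examples are given. Alternatives left out each library, used the 50000 highest peaks, 300 bp around each summit, chromosome X, other presence limits, a margin of 1 kb, the pooled lists and exchange within replicate numbers. The calculation was tested on simulated data. Python 3.11.15, numpy 2.4.6, pandas 2.3.3 and matplotlib 3.10.9 were used.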

Additional observations from a re-analysis of the deposited data

Results flagged for a closer look

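Replicate 1 of asynchronous G1E-ER4 had a peak within 1 kb of 31.2% of the mitotic-only regions, while the other 5 asynchronous libraries had one near 10.1% to 17.7%. It stood apart from the other 5 by 0.640 of the whole range, above the Dixon limit of 0.625 for 6 values. Chance gives such a call in about 1 in 20 groups, and several quantities were examined. The 6 libraries come from 2 lines, and the list median peak width of this library, 1195 bp, was the widest of the 12. The part of peak width in this value was not tested.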

How the results depend on the processing

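The count of 814 mitotic-only regions depended on the rule and the libraries, and depth could not be read to set limits. It was 315 to 3217 on leaving out single libraries, 483 without chromosomes 1, 2, 4, 12 and 14, 2263 with 300 bp around each summit, 72 with all 3 lists per line, 8563 with at least 1 list per line and 411 with no asynchronous peak within 1 kb. With the 50000 highest peaks it was 592, without regions in a pooled asynchronous list 629, and with chromosome X still 814. The asynchronous-only count of 2741 was 1482 to 3505 on leaving out libraries (1736 without replicate 2 and 1482 without replicate 3 of asynchronous G1E-ER4), 889 with all 3 lists and 10172 with at least 1. Of the 31 named regions, 21 to 31 still met the rule on leaving out a library and 7 among the 50000 highest peaks.

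The carry-over differences kept their sign, at 2.26 to 18.8 points for regions chosen in G1E and 9.54 to 25.1 for those chosen in G1E-ER4 on leaving out libraries. With the 50000 highest peaks they were 15.0 and 19.8 points, and with all 3 lists 10.4 and 20.3. With 3 libraries against 3 no setting could bring p below 0.1. The rank difference between lines was 2793 to 6310 places on leaving out libraries (exact permutation p of 0.1 to 0.5). For the regions of all 6 mitotic libraries it was 6631 places (exact permutation p = 0.3). The width difference ran from -38.2 to 182 bp, reversed without replicate 1 of mitotic G1E or replicate 2 or 3 of mitotic G1E-ER4 (-38.2, -1.58 and -6.33 bp) and relative to list width (-0.0582). The cause was not tested. The difference in summit SD was 183 to 266 bp on leaving out libraries, with an exact permutation p of 0.005 to 0.105, and 90.2 bp with an exact p = 0.005 for 300 bp around each summit. Over the same libraries the difference in width was 461 to 935 bp (exact permutation p of 0.005 to 0.345), and that in summit SD at regions of all lists 8.05 to 65.8 bp. A comparison of same-numbered libraries, based on which regions had a peak, gave small correlations, at -0.0410 to 0.0509 with a mean of 0.0172 (18 pairs). Between libraries of different number the correlations were -0.0798 to 0.0465, with a lower mean of -0.00857 (36 pairs). These values do not show how many regions the libraries shared, since 16145 regions were in all 12 lists. The numbers were not taken as pairs in the main tests. Replicate 1 had the widest list median in all 4 groups (763 to 1195 bp, against 356 to 777 bp in replicates 2 and 3). Whether same-numbered libraries share a batch was not tested. With a replicate block the exact permutation p was 0.5 and 0.25 for the carry-over differences of 7.92 and 11.4 points. For the rank difference of 4037 and the width difference of 51.3 bp it was 0.25. The smallest p that 3 pairs allow is 0.25, so the block could not change these calls. Between the sets the block permutation p was 0.0625 for summit SD (203 bp) and 0.09375 for width (601.5 bp). At regions of all lists it was 0.53125 for summit SD (32.5 bp). The smallest possible for these was 0.03125, and their calls did not change.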
